A study of Mus musculus with 3 samples.

Results

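The carriers described here are the transporters by which kidney tubules move ions and organic solutes, measured in endothelial cells of the glomerulus, the capillary tuft that filters blood ahead of the tubules. They were taken by gene family, as every probe set that names a single gene of the Slc4, Slc5, Slc9, Slc12, Slc13, Slc17, Slc22, Slc26, Slc34 or Slc47 family. This gave 88 probe sets for 87 genes, out of 21789 probe sets for 19938 genes. Another 7 genes of these families were not analysed here. RNA came from sorted GFP positive cells of adult Tie2-GFP mice, which carry the transgene Tg(TIE2GFP)287Sato on a mixed, mainly CD-1 background. The reporter is driven by the promoter of Tek (Tie2), an angiopoietin receptor gene of endothelium, so the sort takes cells in which that promoter is active, and the sex of the animals is unknown. There were 3 arrays, replicates 1, 3 and 5, each of 1 adult kidney with no pooling, and they form 1 group without treatment. The design therefore allows a test of each probe set against a level, and a description of how the arrays differ, but no contrast between conditions.

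Carriers of these families exchange or couple sodium, chloride, bicarbonate, phosphate, sulfate, glucose, carboxylates and organic ions across the plasma membrane. In the nephron a few are each confined to a segment, and several of those are the targets of diuretics or of drugs that lower blood glucose. Other members serve cell pH, cell volume or lysosomes in most cell types, endothelium included. Levels are log2 signals, given for replicates 1, 3 and 5 in that order or as a mean ± SD over the 3 arrays. Each mean was compared by limma with a detection level of 100, which is 6.64 on the log2 scale and is the number that the study used as its filter. The study applied that number to raw signals, and here it is set against the deposited normalized values. Probe sets bind with different efficiency, so a level places a probe set against the detection level and does not rank transcripts.

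Of the 88 carrier probe sets, 2 were called above the detection level, 83 below it and 3 neither. Those above were Slc12a2, the sodium-potassium-chloride cotransporter NKCC1, and Slc26a10, a little studied member of the Slc26 anion exchanger family. The share above was 2.27%, against 15.8% of all probe sets that name 1 gene and 10.6% of the 283 probe sets of all other Slc genes. The share below was 94.3%, against 72.5% of all probe sets, and 11.6% of all were called neither. The median level of the carriers was 4.32, beside 5.04 over all probe sets and 4.79 over the other Slc genes. No test of the families as a list was made.

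**Figure D1:**
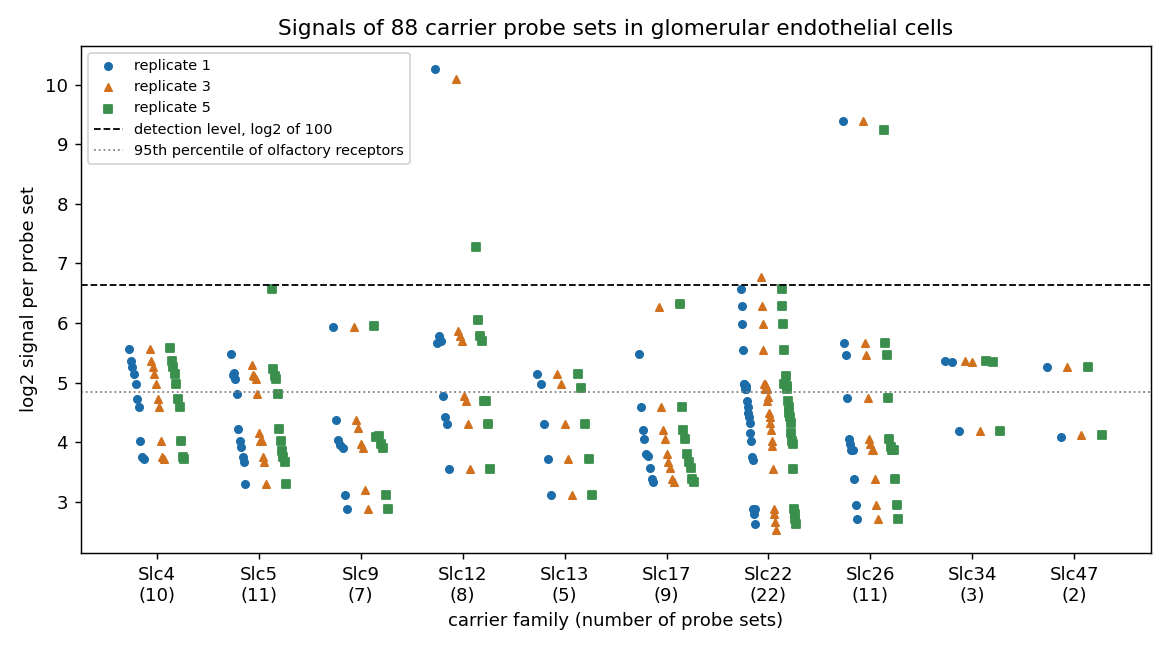
Log2 signal of each of the 88 carrier probe sets (vertical axis) by Slc family (horizontal axis), with a separate symbol for each array, the detection level as a dashed line and the 95th percentile of the olfactory receptor probe sets as a dotted line. Slc12a2 and Slc26a10 lie above the dashed line on all 3 arrays, and Slc22a13 reaches it on replicate 3 with 6.78.

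The sorted cells carried endothelial transcripts on every array. All 10 endothelial markers were called above the level, against 15.8% of all probe sets. Tek, whose promoter drives the reporter of the sort, was at 10.65 ± 0.43 (n = 3). Pecam1, a junction protein, had 10.32, 10.02 and 10.43. Of 9 proximal tubule markers outside these families all were called below, among them the endocytic receptor genes Lrp2 at 4.33 and Cubn at 3.45, and their summed linear signal lay between 126 and 141 on the 3 arrays, against 12117 to 20881 for the endothelial markers. All 10 distal nephron markers were below as well, with Umod at 5.15 and Aqp2 at 5.48, and the sum lay between 271 and 279. The 5 podocyte markers (sum of 181 to 201, Nphs1 at 5.47), the 5 mesangial and smooth muscle markers (138 to 184), the 5 leukocyte markers (146 to 152) and the 3 red cell markers (81 to 87, Alas2 at 5.28) were all called below too. Over all probe sets 72.5% were called below the level. In a bulk sample, fewer cells of a type and less RNA per cell cannot be told apart.

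Slc12a2 was the carrier that varied most between arrays. NKCC1 brings sodium, potassium and chloride into cells and takes part in the regulation of their volume. Its log2 signals were 10.26, 10.10 and 7.27, so replicates 1 and 3 were alike and replicate 5 was 7.15-fold lower than the lower of them. All 3 values were above the detection level, and the mean was 9.21 ± 1.68 (n = 3, adjusted p = 0.0243). The call was lost without replicate 1 (adjusted p = 0.0923) and without replicate 3 (adjusted p = 0.0689), and without replicate 5 the adjusted p was 0.000601. With limma's usual variance prior the adjusted p was 0.121.

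The endothelial markers had another order over the arrays than Slc12a2, which was lowest on replicate 5. Replicate 5 had the highest value for 9 of the 10, while 8 of them were lowest on replicate 3. Over all probe sets that name 1 gene, 17 were lower on replicate 5 than on both other arrays by over 2 on the log2 scale. Slc12a2 was the 1 carrier among them. By the same rule 37 probe sets were lower on replicate 3 and 5 on replicate 1. The range of Slc12a2 ranked 82 among the 21789 probe sets. The source of the difference was not tested.

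Slc26a10 was called above the level in every fit that was run. Its log2 signals were 9.38, 9.38 and 9.24, with a mean of 9.33 ± 0.08 (adjusted p = 8.74e-05). In the RefSeq annotation of GRCm38.p6 the gene overlaps B4galnt1, a ganglioside synthase gene, whose own probe set had 5.40 on each array and was called below the level. The next gene on the other side, Arhgef25, a guanine nucleotide exchange factor gene, had 7.56, 6.76 and 8.31 and was called neither. What share of it belongs to transcripts of the neighbours was not tested.

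Slc22a13 lay at the detection level itself. It encodes OAT10, an apical carrier of urate and nicotinate in the proximal tubule. Its log2 signals were 6.58, 6.78 and 6.58, with a mean of 6.65 ± 0.12 and an adjusted p of 0.983, so the call was neither. The annotated pseudogene copy beside it, Slc22a13b, had 5.67 on each array, and a probe set can also bind transcripts of a near-identical copy, so the value is uncertain. Its other neighbour Slc22a14, a carrier gene of testis, had 4.02 on each array.

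The 2 further carriers called neither were the sodium-inositol cotransporter gene Slc5a3 and Slc17a5, which encodes the lysosomal exporter of sialic acid. Slc5a3 had 5.49, 5.30 and 6.58, with a mean of 5.79 ± 0.69 (adjusted p = 0.0549), and was highest on replicate 5, where Slc12a2 was lowest. It was called below the level without replicate 5 (adjusted p = 0.00328). The gene overlaps Mrps6, a mitochondrial ribosomal protein gene, in the annotation, and the probe set of Mrps6 was steady at 7.06, 6.96 and 7.10. Slc17a5 had 5.48, 6.27 and 6.32, with a mean of 6.02 ± 0.47 (adjusted p = 0.0566). Here replicate 1 stood below the other two, and without replicate 3 the gene was called below (adjusted p = 0.0495).

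**Figure D2:**
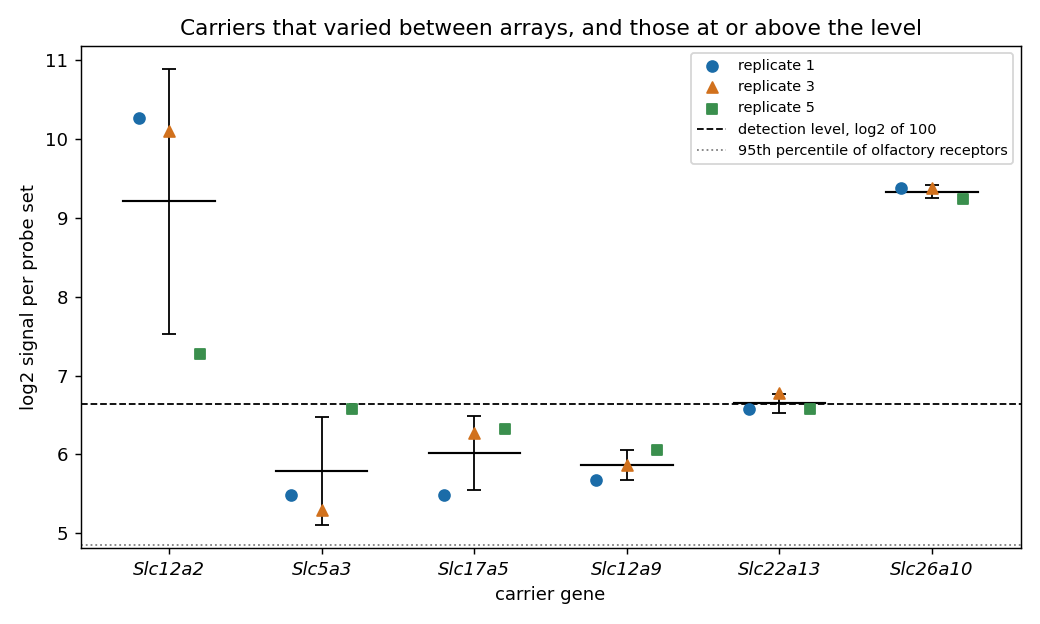
Log2 signal (vertical axis) of 6 carriers (horizontal axis) on each array, with the mean as a horizontal bar and the SD over the 3 arrays as an error bar. Slc12a2 is at 7.27 on replicate 5, where Slc5a3 has its highest value of 6.58, and Slc26a10 stays between 9.24 and 9.38.

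Most other carriers did not differ between the arrays on the deposited scale. The value was identical on all arrays for 59 of the 88 probe sets (67.0%), against 54.1% of all probe sets, and 21 had 2 different values. Only 8 had 3 different values. A range of over 2-fold was found for 2 carriers, Slc12a2 and Slc5a3, which is 2.27% against 5.73% of all probe sets. After these came Slc17a5 with a range of 0.83 on the log2 scale, Slc12a9, a cation-chloride cotransporter gene, with 0.38 and Slc9a5, a sodium-proton exchanger gene of brain, with 0.29. Slc12a9 had 5.67, 5.86 and 6.05, and was called below. Identical values give an SD of 0, which is a property of the deposited summary and not a measure of how alike the kidneys were.

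The carriers that define the proximal tubule were nearly all called below the level. Of 27 on the list 25 were measured, with 24 called below (96%, against 72.5% of all probe sets), 0 above (against 15.8%) and Slc22a13 neither. The count above was also 0 at an unadjusted p under 0.05 in limma and with limma's usual prior. The phosphate cotransporter genes Slc34a1 and Slc34a3 had 5.37 and 5.34 on each array. The glucose cotransporter gene Slc5a2 (SGLT2) had 5.17, 5.11 and 5.11, and Slc5a1 (SGLT1) had 3.75 on each. Slc9a3, the apical sodium-proton exchanger NHE3, was at 3.91 and Slc4a4, the basolateral sodium-bicarbonate cotransporter, at 3.75. The organic anion and cation carriers that secrete drugs gave 4.50 for Slc22a6 (OAT1), 4.98 for Slc22a8 (OAT3), 4.66 ± 0.09 for Slc22a2 (OCT2) and 5.26 for Slc47a1 (MATE1). The urate exchanger gene Slc22a12 (URAT1) was at 5.55 on each array. The sulfate and dicarboxylate carriers Slc13a1, Slc13a2 and Slc13a3 were at 3.12, 3.73 and 4.31. The remaining members, Slc5a8, Slc5a10, Slc5a12, Slc17a1, Slc17a3, Slc22a7, Slc22a19, Slc22a30, Slc26a1 and Slc26a6, lay between 2.60 and 4.90.

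The carriers of later segments gave the same kind of count. By limma 9 of 9 were called below (100%, against 72.5% of all probe sets). The count above was 0 (against 15.8%), also at an unadjusted p under 0.05. The target of loop diuretics, Slc12a1 (NKCC2), had 3.56 on each array, where its close relative Slc12a2 was called above the level. The thiazide target Slc12a3 (NCC) had 4.77, 4.77 and 4.70. Slc4a1, the chloride-bicarbonate exchanger of red cells and intercalated cells, was at 5.36 on each array. Pendrin (Slc26a4) was at 4.06, Slc26a7 at 3.38, Slc4a8 at 4.98 and Slc4a9 at 4.72. The sodium-proton exchangers Slc9a2 and Slc9a4 were at 4.13 ± 0.11 and 3.97 ± 0.02.

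A lower level showed how the role lists stood among themselves. It was the value that 95% of the 1023 probe sets for olfactory receptors, genes of the nose, did not exceed, which was 4.85 on the log2 scale. At that level limma called 20 carriers above, 47 below and 21 neither, against 44.4% above and 36.2% below over all probe sets. Among the carriers expressed broadly across tissues 12 of 20 (60.0%) were above it, with a median level of 5.52. Among the proximal tubule carriers 5 of 25 were above, namely Slc22a13, Slc22a12, Slc34a1, Slc34a3 and Slc47a1, and 15 (60.0%) were below, with a median of 4.21. Of the later segments 1 of 9 (Slc4a1) was above, and the median was 4.13. No neural or sensory carrier (0 of 8, median 4.04) and no carrier of other organs (0 of 16, median 4.20) was called above by limma, and the counts were also 0 at an unadjusted p under 0.05. These shares were not tested against each other. At the same level 0 of 9 proximal tubule markers, 4 of 10 distal nephron markers, 3 of 5 podocyte markers, 0 of 5 mesangial and smooth muscle markers, 2 of 5 leukocyte markers and 1 of 3 red cell markers (Alas2, adjusted p = 0.0308) were called above, and their part in the carrier counts was not tested.

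**Figure D3:**
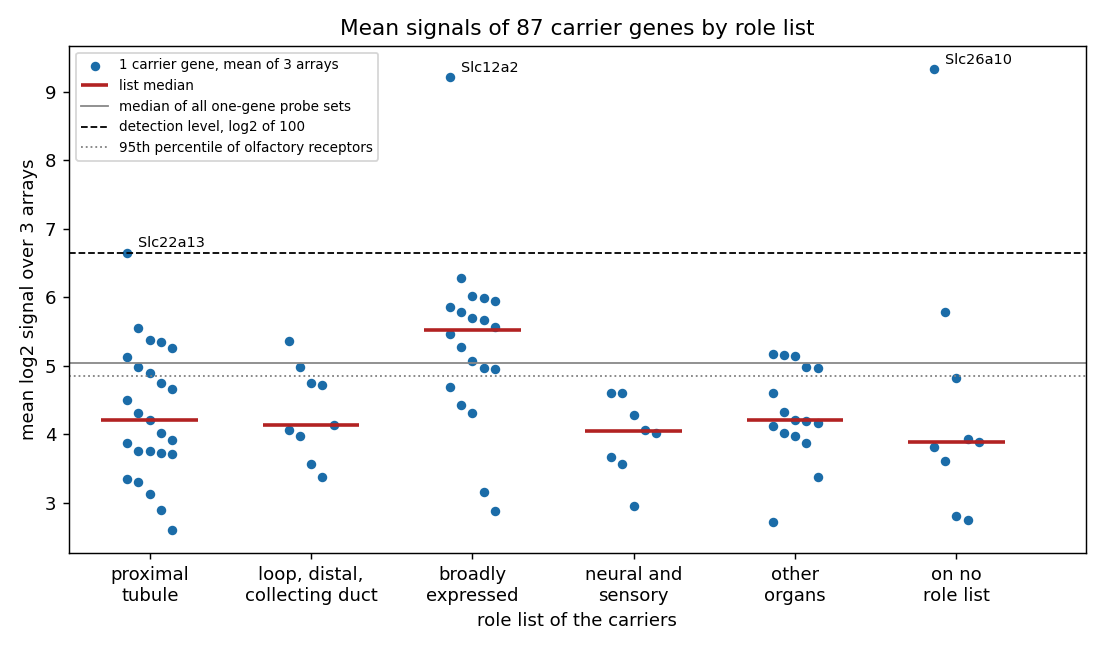
Mean log2 signal over the 3 arrays (vertical axis) of each of the 87 carrier genes, grouped by the role list they are on (horizontal axis), with list medians in red, the median of all probe sets that name 1 gene as a grey line, the detection level dashed and the olfactory receptor percentile dotted. The broadly expressed carriers have a median of 5.52, and the other lists have medians of 3.89 to 4.21.

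Among the broadly expressed carriers, Slc12a2 was above the detection level (5.0%, against 15.8% of all probe sets). Below it were 17 of 20 (85.0%, against 72.5%), and Slc5a3 and Slc17a5 were the 2 called neither. Nearest under the level were Slc22a17, a lipocalin receptor gene, at 6.28 on each array (adjusted p = 0.0427), Slc17a5, and Slc22a18 at 5.99. With fewer arrays in limma, the call of Slc22a17 was lost without replicate 1 (adjusted p = 0.0691) and without replicate 5 (adjusted p = 0.0652). It was kept without replicate 3 (adjusted p = 0.0397). Its mean was 6.28 in each of these fits, so the calls did not turn on its own value on any replicate. The Golgi sodium-proton exchanger gene Slc9a8 had 5.94, 5.94 and 5.96. Of the endosomal exchanger genes of the same family, Slc9a9 had 3.12, 3.21 and 3.12 and Slc9a7 had 2.88 on each array, both called below. Of the potassium-chloride cotransporters that let cells shrink, Slc12a4 (KCC1) was at 5.70 and Slc12a7 (KCC4) at 4.31, both on each array. The bicarbonate exchanger gene Slc4a2 (AE2) had 5.57, 5.57 and 5.58, and the sulfate carrier gene Slc26a2 was at 5.67. The carnitine carrier gene Slc22a5 (OCTN2) was at 4.95 and the vitamin carrier gene Slc5a6 at 5.07.

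In the Slc4, Slc9, Slc13, Slc34 and Slc47 families every measured probe set was called below, with 10, 7, 5, 3 and 2 probe sets. Over all probe sets the share below was 72.5%, so such counts from small families are weak. In Slc13, Slc13a4, a sulfate carrier gene, had 5.14 on each array. Slc4a3 was the only carrier with 2 probe sets, and these gave 5.27 and 3.72 on each array, both below. Genes that lie side by side as tandem families were low together. The run from Slc22a19 through Slc22a26, Slc22a27, Slc22a29 and Slc22a30 to Slc22a8 and Slc22a6 had 7 of 7 measured genes below, at 2.60 to 4.98. The run of Slc17a2, Slc17a3, Slc17a1 and Slc17a4 had 4 of 4 below, at 3.34 to 4.21, and that of Slc22a5, Slc22a21 and Slc22a4 had 3 of 3 below, at 4.17 to 4.95. The pair of Slc22a14 and Slc22a13 was the exception among 7 such runs, with 4.02 against 6.65.

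The promoters of the carriers, which the choice by gene family did not use, were read for CpG dinucleotides and for the core of an HNF1 site. In RefSeq windows of the 250 bases before the start site (GRCm38.p6), 69 of the 87 genes matched, with 84 windows. The broadly expressed carriers had a median of 19.5 CpG dinucleotides per window (20 windows of 17 genes), the proximal tubule carriers 3 (24 windows of 20 genes), and all 32851 promoter windows 6. The letters GTTAAT, the core of the site that the tubule factors of the HNF1 family bind, were searched on both strands, where the other strand reads ATTAAC. They occurred in 4 of 24 proximal tubule windows (16.7%), those of Slc34a1, Slc22a6, Slc22a8 and Slc5a10, in 0 of 20 windows of the broadly expressed carriers and in 6.43% of all promoter windows. These differences between the lists were not tested. The core also occurred in 2 of 10 windows (20%) of carriers on no role list, in 1 of 14 (7.14%) of carriers of other organs, and in 0 of 12 neural and 0 of 4 later segment windows. The following windows are examples. They come from proximal tubule carriers called below the level that hold the core, broadly expressed carriers near the level, Slc26a10 above it and Slc22a13 at it. They do not span the CpG counts of their lists, since proximal tubule windows reached 44 and broadly expressed windows went down to 0.

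For a pair of proximal tubule carriers this core is in capitals. The window of Slc34a1 is chr13:55399398-55399647 on the plus strand, with 1 CpG, and that of Slc22a6 is chr19:8617746-8617995 on the plus strand, with 0.

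Slc34a1: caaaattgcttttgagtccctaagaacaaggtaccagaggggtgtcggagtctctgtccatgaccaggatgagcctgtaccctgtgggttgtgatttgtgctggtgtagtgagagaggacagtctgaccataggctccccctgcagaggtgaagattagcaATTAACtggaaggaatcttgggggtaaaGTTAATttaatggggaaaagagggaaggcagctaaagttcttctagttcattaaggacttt

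Slc22a6: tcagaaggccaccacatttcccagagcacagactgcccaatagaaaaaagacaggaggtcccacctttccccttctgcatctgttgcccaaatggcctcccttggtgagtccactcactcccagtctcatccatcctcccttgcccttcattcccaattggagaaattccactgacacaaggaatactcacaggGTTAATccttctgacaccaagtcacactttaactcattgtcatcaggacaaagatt

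For a pair of broadly expressed carriers and for Slc26a10 and Slc22a13 the CpG dinucleotides are in capitals. The window of Slc5a3 is chr16:92058072-92058321 on the plus strand, that of Slc9a8 is chr2:167421460-167421709 on the plus strand, that of Slc26a10 is chr10:127180583-127180832 on the minus strand, and that of Slc22a13 is chr9:119209106-119209355 on the minus strand.

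Slc5a3: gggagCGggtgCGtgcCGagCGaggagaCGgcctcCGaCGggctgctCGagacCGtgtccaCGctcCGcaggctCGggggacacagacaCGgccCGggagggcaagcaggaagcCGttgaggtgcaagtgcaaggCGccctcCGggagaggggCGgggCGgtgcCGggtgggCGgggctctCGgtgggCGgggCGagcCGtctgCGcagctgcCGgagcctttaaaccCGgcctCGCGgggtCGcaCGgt

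Slc9a8: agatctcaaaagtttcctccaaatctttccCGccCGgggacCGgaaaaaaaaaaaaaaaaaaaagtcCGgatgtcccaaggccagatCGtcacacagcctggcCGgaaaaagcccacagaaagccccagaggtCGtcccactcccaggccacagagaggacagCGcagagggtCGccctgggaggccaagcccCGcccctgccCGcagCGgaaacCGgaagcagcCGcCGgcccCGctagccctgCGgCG

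Slc26a10: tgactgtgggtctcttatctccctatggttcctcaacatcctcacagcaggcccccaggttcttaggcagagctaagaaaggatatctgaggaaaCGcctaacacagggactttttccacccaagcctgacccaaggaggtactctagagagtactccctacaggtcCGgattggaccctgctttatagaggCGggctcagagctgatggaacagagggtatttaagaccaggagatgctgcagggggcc

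Slc22a13: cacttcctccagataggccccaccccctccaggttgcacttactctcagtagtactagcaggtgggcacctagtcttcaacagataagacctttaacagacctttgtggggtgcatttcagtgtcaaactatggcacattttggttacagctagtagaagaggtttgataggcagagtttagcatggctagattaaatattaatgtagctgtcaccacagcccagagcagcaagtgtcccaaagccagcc

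These windows hold 32 CpG dinucleotides for Slc5a3, 18 for Slc9a8, 3 for Slc26a10 and 0 for Slc22a13. Among carriers near the level the CpG count showed no single order with the distance to it, and a trend was not tested. Slc22a13 (mean 6.65) had 0, Slc22a17 (6.28) had 8 and Slc17a5 (6.02) had 14. Slc22a18 (5.99) had 0, Slc9a8 (5.94) had 18 and Slc12a9 (5.86) had 16. At a mean of 5.79, Slc5a3 had 32 and the windows of Slc12a8 had 3, 5 and 6. A match of letters is a description and not a bound site. The factors that bind the core were not analysed here. Of the other tubule factors on the list, 5 were measured and all were called below the level, against 72.5% of all probe sets. Hnf4a was at 5.37 on each array and Hnf4g at 3.21.

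The list of partners and regulators included several genes with strong signals. Some do not act on the carriers of these families, among them the Lrrc8 channel subunit genes and Bsg, and are counted here. Of 40 on the list 37 were measured, with 11 called above (29.7%, against 15.8% of all probe sets), 22 below (59.5%, against 72.5%) and 4 neither. The median level was 5.61, beside 5.04 over all probe sets, and the difference was not tested. The kinase gene Wnk1, which sits at the head of the pathway that activates NKCC1, had 9.41, 9.10 and 9.10, and its relative Wnk2 had 4.85 on each array. Stk39 and Oxsr1 encode the kinases that act between WNK1 and the cotransporter. Stk39 (SPAK) had 6.86, 5.51 and 6.87, with the low value on replicate 3 and the call neither (adjusted p = 0.546), and Oxsr1 had 5.84, 5.67 and 5.86 and was called below (adjusted p = 0.00317). Their scaffold Cab39 was at 8.30 on each array and called above, while the related Cab39l was below at 4.73. On replicate 5, where Slc12a2 was lowest, Stk39 (6.87) and Oxsr1 (5.86) were almost the same as on replicate 1 (6.86 and 5.84). Cab39 was the same on all arrays, and Wnk1 equalled replicate 3. Equal values of Cab39 and Wnk1 are a property of the deposited summary. Whether these genes bear on the difference in Slc12a2 was not tested.

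The volume-regulated anion channel, which releases chloride when cells swell, is built from LRRC8 proteins. Its obligatory subunit gene Lrrc8a had 7.53, 7.53 and 7.65 and Lrrc8c had 9.65, 9.56 and 9.86, both called above. Lrrc8b and Lrrc8d had 6.84 on each array and were called neither (adjusted p = 0.18 and 0.184), and Lrrc8e was below at 5.48.

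PDZ scaffolds that hold apical carriers in the tubule were split. Slc9a3r2 (NHERF2) was at 10.98 on each array and called above, and the exchanger it is named after, Slc9a3, was called below. Slc9a3r1 (NHERF1) had 6.25, 6.79 and 6.25 and was called neither (adjusted p = 0.301), and Pdzk1 was below at 4.64 ± 0.07. The linker gene Ezr was at 6.24 ± 0.17 and called below (adjusted p = 0.0466). For the sodium pump, which drives the sodium-coupled carriers, the subunit gene Atp1b3 was above at 8.23 ± 0.05, whereas Atp1b1, the main beta subunit of tubules, was below at 3.51 ± 0.02. The pump regulator gene Fxyd5 had 10.61, 11.24 and 10.72, and the tubular Fxyd2 had 4.70 on each array.

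The other genes of the list called above were Sgk1, Ahcyl1, Bsg and Cul3. Sgk1, a kinase gene induced by corticosteroids, had 10.29, 9.51 and 10.29. Ahcyl1, whose product binds bicarbonate cotransporters, was at 8.51 ± 0.07. Bsg, a chaperone of lactate carriers, which are outside these families, was at 7.64 ± 0.47. Cul3, the scaffold of the ubiquitin ligase that degrades WNK kinases, had 10.74, 10.73 and 10.73. The adaptor gene Klhl3 of that ligase was below at 4.56. The carbonic anhydrase genes Car2, Car4, Car12, Car14 and Car15 were all called below, at 3.30 to 5.28.

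**Figure D4:**
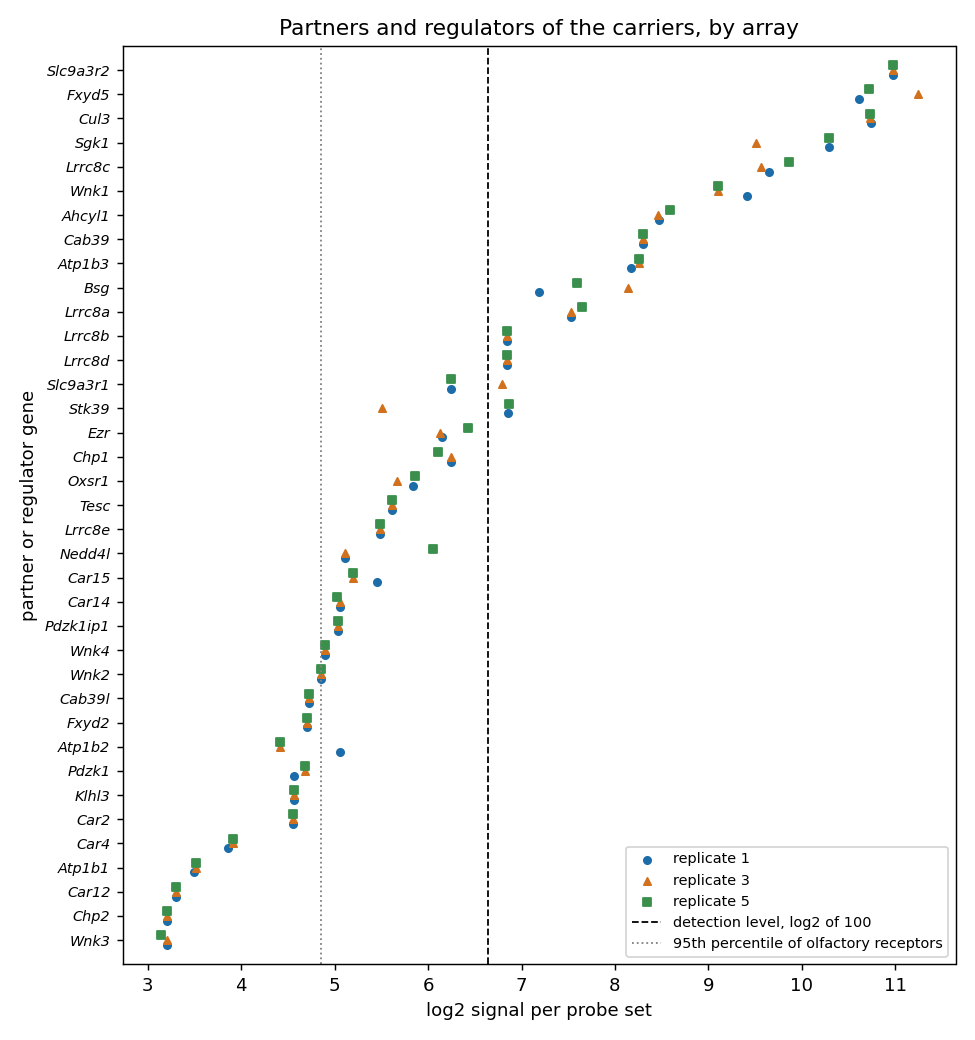
Log2 signal (horizontal axis) of the 37 measured partners and regulators of the carriers (vertical axis, ordered by mean), with a separate symbol for each array, the detection level dashed and the olfactory receptor percentile dotted. Slc9a3r2 is at 10.98 on each array, while Stk39 has 5.51 on replicate 3 against 6.86 and 6.87 on the other two.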

How the data were processed

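After 1 round of amplification, RNA from the sorted cells was measured on 3 Affymetrix Mouse Gene ST arrays. The authors deposited 1 normalized log2 value per probe set and array. Their processing notes name Affymetrix Expression Console, and the study names RMA, which fits probes by median polish. With few arrays, median polish can return the same value for every array. The set of arrays that shared a normalization, the software version and the build of the annotation are not given in the sources used here.

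Gene names came from GEO's platform annotation, with symbols updated by Entrez ID through RefSeq (GRCm38.p6), and probe sets naming several genes (1621) or not named there (12147) were left out. The single multi-gene probe set with a carrier among its names was left out too. Counts of genes used the probe set with the highest mean. Each mean was tested in limma 3.58.1 (R 4.3.3) for a distance from log2 of 100. The test was two-sided, p-values were adjusted by Benjamini-Hochberg across the 21789 probe sets, and the threshold was 0.05. Because identical values break limma's usual variance prior, the prior came from the 4406 probe sets with 3 different values (prior SD 0.288, prior degrees of freedom 2.03). On simulated data, those set at the level itself were called more often than the threshold allows, so calls close to it are weak. The p-values rest on the spread between these 3 arrays and on that prior, and so few arrays limit the precision. For probe sets with identical values, as for 59 of the 88 carriers, they reflect only the prior and the distance to the level. The alternatives were the usual prior, levels of 50, 200 and the olfactory receptor percentile, a filter on low values, further normalization, averaged probe sets, a rule without a test and each replicate left out.

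The families, lists and tests were chosen with earlier results of these data known, so no list is independent evidence. Named are all carriers called above or neither, the tubule carriers, the highest of each family, the 5 with the widest range, the 3 on each side of the level, and partners, factors and markers called above or neither or listed first. Other names were chosen after their values were seen.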

Additional observations from a re-analysis of the deposited data

How the results depend on the processing

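The detection level decided the counts most. At the olfactory receptor level 20 carriers were above and 47 below, with 5 above and 15 below of the proximal tubule, 1 and 5 of the later segments, 12 and 4 of the broadly expressed list, and 10 below of other organs. At a level of 50, 4 carriers were above, 1 of them proximal and 2 broadly expressed, and 9 of the broadly expressed list were below. At 200, 1 carrier and 0 broadly expressed ones were above. Distances changed sign for Slc5a3 (0.94), Slc17a5 (1.17), Slc22a17 (1.43), Slc12a9 (1.01), Slc9a8 (1.09) and Slc22a18 (1.14) at the olfactory level. They also changed at 50 for Slc5a3 (0.15), Slc17a5 (0.38), Slc22a17 (0.64), Slc12a9 (0.22), Slc9a8 (0.30) and Slc22a18 (0.35), and at 200 for Slc22a13 (-1.0). Moving the level causes these by construction.

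With limma's usual prior 1 carrier (Slc26a10) and 0 broadly expressed ones were above. Leaving out 1 replicate gave 1 to 2 carriers above, 0 to 1 of them broadly expressed, and the count of carriers with a range over 2-fold was 0 to 2, with 0 without replicate 5. The carrier lost from the count above was Slc12a2 under the usual prior, at 200 and without replicate 1 or 3, while Slc26a10 was called above in each of these fits. The filter to probe sets with 100 on an array left 3 carriers to test, so a count below could not be had. No paired analysis was possible because all arrays form 1 group. A signal near that of the olfactory receptors is not shown to be absent.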

Other observations

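Genes tied to the response to hypertonicity, among them carriers of organic osmolytes, were measured beside Slc5a3. The set was chosen after the values of Slc5a3 were seen. Akr1b3 and Hspa1b were also in the set and have no values here. The taurine carrier gene Slc6a6 had 10.85, 11.30 and 11.03 and was called above the level (adjusted p = 6.88e-05), as was Nfat5, the transcription factor of the response to hypertonicity, at 8.07, 7.94 and 7.86 (adjusted p = 0.000717). The betaine carrier gene Slc6a12 was below at 4.70 ± 0.10, and the urea carrier gene Slc14a2 had 4.31 on each array. None of these had its highest value on replicate 5, where Slc5a3 did.

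Different carriers also shared values. Slc22a14, Slc4a10 and Slc5a8 all had 4.02 on each array to 5 decimals, and 53 of the 88 carrier probe sets (60.2%) had the same 3 values as some other probe set, against 47.5% of all probe sets that name 1 gene.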
